A study of Mus musculus with 32 samples.

Results

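Cholesterol synthesis genes were followed in the tumors of a pair of transgenic mouse models of medulloblastoma, a malignant tumor of the hindbrain. The set consists of Hmgcs1, Idi1, Fdps, Fdft1, Sqle, Lss and Cyp51, all of which encode enzymes of sterol synthesis and none of which takes up cholesterol. Of these 7 genes, 6 were matched by Ensembl identifier among the 37310 genes of the count table, and all 6 passed the filter on low counts. The expression of Hmgcs1, which encodes HMG-CoA synthase, was not analysed here, and only its promoter is shown. Genes of cholesterol uptake were taken from a separate list and are described after the enzymes.

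RNA from fresh-frozen biopsies of 6 GMYC and 8 GTML tumors was sequenced. GMYC tumors arose in Glt1-tTA/TRE-MYC mice, which carry both transgenes in 1 copy and in which the tetracycline-regulated transactivator, driven by the Glt1 promoter, turns on MYC. GTML tumors arose in the corresponding model, in which the same promoter drives MYCN. Both models were on the FVB/N background, so the Glt1-driven transactivator was shared and no tumor-free tissue served as a control. The age at which each tumor was taken is not given in the sources used here. The study describes a longer latency in GTML than in GMYC mice, and takes a part of the GTML libraries from earlier work without naming them, so age, source of the library and model cannot be told apart. The study describes a GTML tumor with an SHH-like signature and compares the models with a GTML tumor fewer than it sequenced. The SHH-like tumor is not named in the sources used here. All 8 GTML tumors were kept, so the comparison here includes the tumor that the study left out. Each tumor is represented by 1 biopsy, and the labels do not say whether any of them shared a litter.

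Total counts were 6218378 to 7279811 in GMYC tumors and 4602294 to 6317404 in GTML tumors, and any 2 tumors of a model differed by more than sampling noise. Myc, the mouse gene whose counts may include reads from the transgene, was 33.5 to 167 CPM (counts scaled to the size of the library, here after TMM normalization) in GMYC tumors and 2.57 to 8.57 CPM in GTML tumors. Mycn was 7.73 to 34.5 CPM in GMYC tumors and 117 to 191 CPM in GTML tumors, so neither gene overlapped between the models. GMYC tumor 6 had the lowest Myc level of its model, 33.5 CPM against at least 134 CPM in the others, and the highest Mycn level of its model. The tumors also fell into 2 sides by how much of their counts came from small nucleolar RNAs, split at 0.3% of counts. GMYC tumors 1 to 4 and GTML tumors 1 and 2 lay above the split. These are the first 6 tumors in the order of the deposited samples, and the labels name no batch.

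Cells make cholesterol from acetyl-CoA through the mevalonate pathway. Isopentenyl units are joined into farnesyl diphosphate, which either leaves for protein prenylation, ubiquinone and dolichol or is committed to squalene and, after ring closure, to sterols. When membrane sterols run low, the transcription factor encoded by Srebf2 is released and binds sterol regulatory elements in the promoters of these enzymes, commonly beside CCAAT boxes bound by NF-Y. The brain makes nearly all of its own cholesterol, because lipoproteins of the blood do not cross the blood-brain barrier.

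The promoters are shown because these genes are known as a group that shares such elements. RefSeq windows from 250 bases before to 50 bases after the start of the gene were matched for 4 of the 7 genes (GRCm38.p6 build), and the part just before the start is printed 5′ to 3′ on the strand of the gene. Capitals mark the sterol regulatory element TCACNCCAC in Hmgcs1 and the NF-Y box CCAAT, or ATTGG where it lies on the other strand, in each gene. These motifs do not overlap one another.
Hmgcs1, chr13:119690201-119690350, plus strand: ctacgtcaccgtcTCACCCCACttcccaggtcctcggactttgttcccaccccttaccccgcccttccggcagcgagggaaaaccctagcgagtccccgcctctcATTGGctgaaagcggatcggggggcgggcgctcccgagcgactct
Idi1, chr13:8885506-8885605, plus strand: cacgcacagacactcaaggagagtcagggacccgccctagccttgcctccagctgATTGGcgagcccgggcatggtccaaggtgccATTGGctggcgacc
Lss, chr10:76531505-76531604, plus strand: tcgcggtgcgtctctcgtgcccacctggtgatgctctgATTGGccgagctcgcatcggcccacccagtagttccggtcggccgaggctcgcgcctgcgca
Cyp51, chr5:4104698-4104797, minus strand: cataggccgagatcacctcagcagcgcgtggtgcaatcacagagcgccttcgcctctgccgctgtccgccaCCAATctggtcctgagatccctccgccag

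Searched on both strands, the NF-Y box was in a window of 4 of these 4 genes, against 41.1% of all 27025 genes with a window. Idi1 held it at 2 places in the printed stretch, Hmgcs1, Lss and Cyp51 at 1. Among the other sterol enzymes, 11 of 13 genes with a window held it. The sterol regulatory element in the letters searched was in the Hmgcs1 window only among the 4 genes, and in 1.44% of all genes with a window. The E-box CACGTG, the letters to which MYC and MYCN bind as dimers with MAX, was in 0 of the 4 genes. It was in 3 of 13 of the other enzymes and in 8.09% of all genes with a window. A match of letters is a description, and the absence of these letters says nothing about binding.

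The first comparison asked which enzymes differed between the models. Idi1 and Fdft1 were lower in GTML tumors than in GMYC tumors, and no member was higher. All 6 fitted log2 fold changes (GTML over GMYC) were below 0, with a median of -0.38, against a median of 0.04 over all 21024 genes tested. Calls were made with edgeR's quasi-likelihood test at a Benjamini-Hochberg adjusted p under 0.05. Lower calls made up 9.71% of all genes tested and higher calls 11.5%, so 2 of 6 members stood beside about 1 in 10 genes. Without adjustment 3 of 6 members had a p under 0.05, all lower in GTML, where 17.4% of all genes tested did so in that direction. DESeq2 and limma-voom likewise called 0 members higher.

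**Figure D1:**
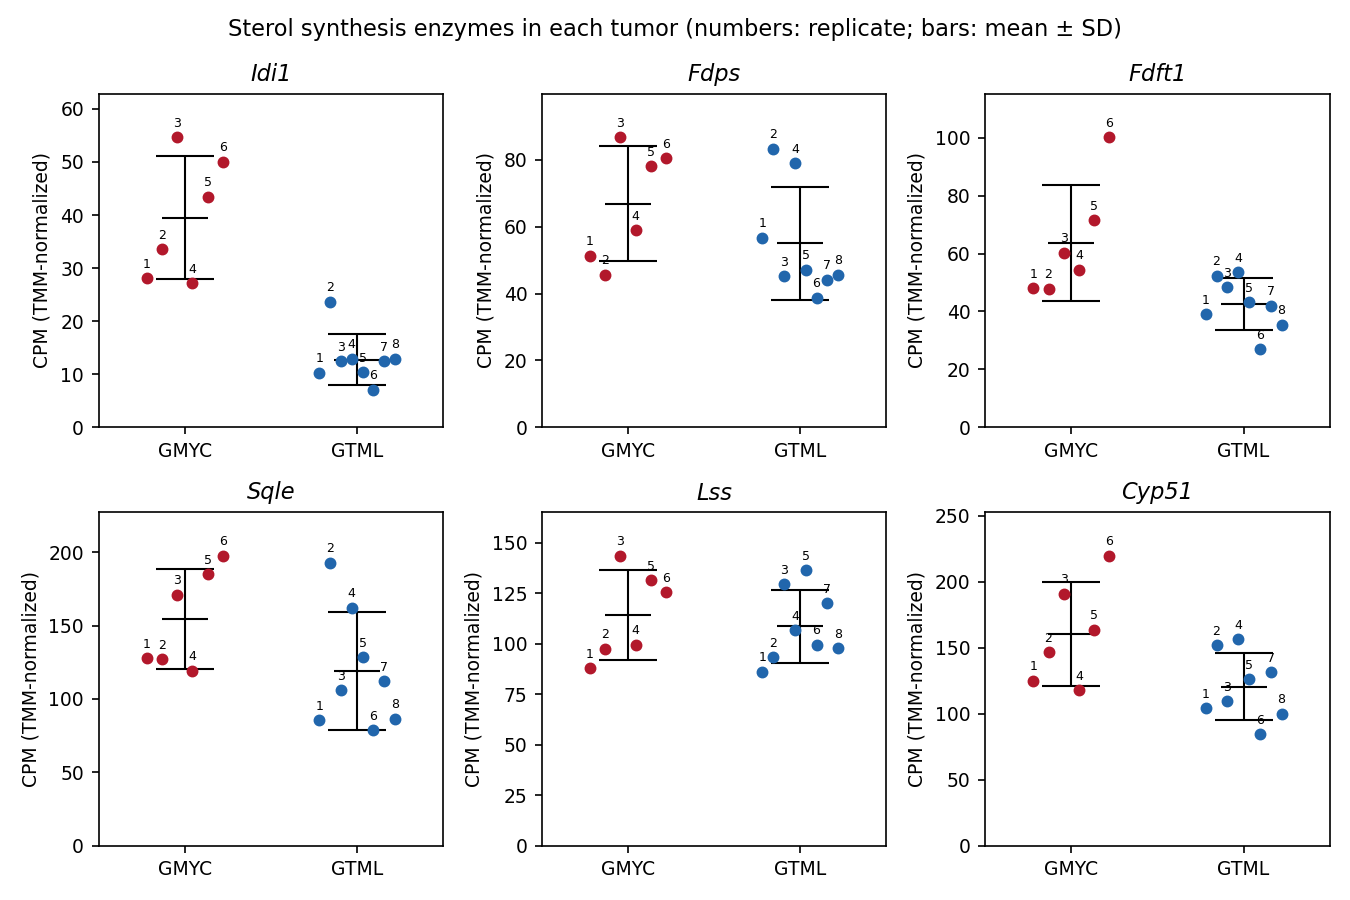
Normalized CPM (vertical axis, linear from 0) of the 6 enzymes in each GMYC (red) and GTML (blue) tumor, numbered by replicate, with black bars for the mean ± SD. The models do not overlap for Idi1 (27.2 to 54.7 against 7.07 to 23.6 CPM) and overlap for the other 5.

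Idi1 encodes isopentenyl-diphosphate isomerase, which turns isopentenyl into dimethylallyl diphosphate, the starter of every isoprenoid chain. Its level was 28.1, 33.5, 54.7, 27.2, 43.5 and 50.02 CPM in GMYC tumors 1 to 6. In GTML tumors 1 to 8 it was 10.3, 23.6, 12.4, 12.9, 10.4, 7.07, 12.5 and 12.9 CPM. Each of the 6 GMYC tumors lay above each of the 8 GTML tumors, a pattern found in 2.52% of genes tested. The mean of the GMYC model was 39.5 ± 11.6 CPM (SD, n = 6), and that of the GTML model 12.8 ± 4.83 CPM (SD, n = 8), a log2 fold change of -1.61 (SE 0.25, 95% interval -2.13 to -1.09, edgeR adjusted p = 0.00213). That is a level 3.06-fold higher in GMYC tumors. By p, Idi1 ranked 61 of the 21024 genes.

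The difference in Idi1 was present on each side of the small nucleolar RNA split, though it passed the test on only 1 of them. Among GMYC tumors 1 to 4 and GTML tumors 1 and 2 its log2 fold change was -1.07 (edgeR adjusted p = 0.388), in a fit that called only 2 of 18921 genes. Among the remaining 8 tumors it was -2.03 (edgeR adjusted p = 0.0063). With each of the 14 tumors left out in turn it stayed between -1.80 and -1.499 and passed the test in 14 of 14 fits.

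Counts of Idi1 share sequence with Gm13502, a processed pseudogene 100% identical to it over 684 bases, so reads could have been split between them. Gm13502 was counted at 17.2 to 36.0 CPM in GMYC tumors and at 4.66 to 13.7 CPM in GTML tumors, again with no overlap (log2 fold change -1.96, edgeR adjusted p = 0.00107). Summed, Idi1 and Gm13502 gave a GMYC mean of 66.0 ± 18.1 CPM (SD, n = 6) and a GTML mean of 19.5 ± 7.55 CPM (SD, n = 8), a log2 fold change of -1.74 (edgeR adjusted p = 0.000941). The lowest GMYC tumor then stood at 45.3 CPM and the highest GTML tumor at 37.4 CPM. Over the whole table, 31.2% of 1999 processed pseudogenes were called lower in GTML, against 7.81% of 15333 protein-coding genes, and the part of this difference in the copies of Idi1, Fdps and Fdft1 was not tested.

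Fdps encodes farnesyl diphosphate synthase, which builds the branch point between sterols and other isoprenoids. Its lowest, median and highest levels were 45.7, 68.6 and 86.9 CPM in GMYC tumors and 38.8, 46.3 and 83.3 CPM in GTML tumors. GTML tumors 2 and 4, at 83.3 and 78.9 CPM, lay within the upper part of the GMYC range, while the others of that model were at 56.7 CPM or less. The log2 fold change was -0.27 (95% interval -0.69 to 0.16, edgeR adjusted p = 0.343). Fdps has pseudogenes up to 98.87% identical to it, and summed with the 2 that were counted it gave a log2 fold change of -0.40 (edgeR adjusted p = 0.170).

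Fdft1 encodes squalene synthase, the step that commits farnesyl diphosphate to sterols. Its levels were 47.9, 57.3 and 100.3 CPM (lowest, median, highest) in GMYC tumors and 27.0, 42.6 and 53.7 CPM in GTML tumors. Of the GMYC tumors 4 of 6 lay above every GTML tumor, and 5 of 8 GTML tumors lay below every GMYC tumor. The log2 fold change was -0.56 (SE 0.19, 95% interval -0.96 to -0.16, edgeR adjusted p = 0.0441), a 1.48-fold higher level in GMYC tumors.

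The call of Fdft1 lay close to the threshold. It was lost with any 1 of GMYC tumors 3, 5 and 6 or GTML tumors 1, 3, 5, 6, 7 and 8 left out, where edgeR adjusted p was 0.0502 to 0.110. The largest shift came without GMYC tumor 6 (log2 fold change -0.39, edgeR adjusted p = 0.110). Without GMYC tumor 3 or GTML tumor 3, 5 or 7 the log2 fold change was -0.5819, -0.5906, -0.5657 and -0.5695. In those fits the call was lost although the difference was no smaller than over all tumors. limma-voom gave an adjusted p of 0.0534. Exons of Fdft1 and of Ctsb, a lysosomal protease gene on the opposite strand, share 774 bases in the GRCm38 annotation, and Ctsb was also lower in GTML tumors (log2 fold change -0.49, edgeR adjusted p = 0.00939). Whether counting used strand is not given in the sources used here, so reads of the 2 genes could not be told apart there. Summed with its pseudogene Gm6781, Fdft1 had a log2 fold change of -0.62 (edgeR adjusted p = 0.0322).

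Sqle encodes squalene epoxidase, the first oxygen-requiring step and a further control point of the pathway. It ran at 119, 149 and 198 CPM (lowest, median, highest) in GMYC tumors and at 78.6, 109 and 193 CPM in GTML tumors. Of the GTML tumors 5 of 8 lay below every GMYC tumor, while GTML tumor 2 lay above 5 of the 6. Over all 14 tumors the log2 fold change was -0.36 (95% interval -0.79 to 0.06, edgeR adjusted p = 0.196).

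Lss encodes lanosterol synthase, which closes the sterol rings. Its levels were 87.8, 112 and 144 CPM (lowest, median, highest) in GMYC tumors and 86.1, 103 and 136 CPM in GTML tumors, almost the same range. The log2 fold change was -0.05 (edgeR adjusted p = 0.797), and its 95% interval, -0.35 to 0.24, leaves out a change the size of that of Idi1. Without GMYC tumor 3, the highest of all for Lss, the log2 fold change was 0.02 (edgeR adjusted p = 0.938).

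Cyp51 encodes lanosterol 14α-demethylase, a cytochrome P450 enzyme that follows Lss. Its levels were 118, 155 and 220 CPM (lowest, median, highest) in GMYC tumors and 84.5, 118 and 156 CPM in GTML tumors. The log2 fold change was -0.40 (95% interval -0.74 to -0.05, unadjusted p = 0.0258 and adjusted p = 0.0867 by edgeR), so it did not pass after adjustment over all genes. In the GRCm38 annotation its exons overlap those of Akap9 on the opposite strand by 166 bases.

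Sqle and Cyp51 were called only in the fit without GTML tumor 2. Without it the log2 fold change of Sqle was -0.49 (edgeR adjusted p = 0.0468) and that of Cyp51 -0.45 (edgeR adjusted p = 0.0477), so 4 of 6 members were called lower. In that fit 15.1% of all genes tested were called lower. Cyp51 changed as much without GTML tumor 4 (log2 fold change -0.46, edgeR adjusted p = 0.0564) or GMYC tumor 4 (-0.47, edgeR adjusted p = 0.0530), but was not called. Those fits called 9.58% and 9.05% of all genes tested lower, so the call of Cyp51 cannot be put down to its level in GTML tumor 2. Tumor by tumor, GTML 2 held 1.91 times the median Idi1 level of the other GTML tumors, 1.83 times that of Fdps and 1.82 times that of Sqle. For Cyp51 it held 1.39 times, for Fdft1 1.25 times and for Lss 0.875 times that median.

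The other extremes were spread over few tumors. Within the GMYC model, tumor 3 was highest for 3 members and tumor 6 for the other 3. Within the GTML model, tumor 2 was highest for 3 members, tumor 4 for 2 and tumor 5 for 1 (Lss), and tumor 6 was lowest for 5 of 6. The mean log2 CPM over the 6 members ran from 6.09 to 6.84 in GMYC tumors and from 5.38 to 6.35 in GTML tumors, so the ranges of the models overlapped.

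Within a model the members moved together to different degrees. In the 6 GMYC tumors the Spearman correlation of each member with the mean of the others was 0.66 (Fdft1) to 0.83 (Cyp51). In the 8 GTML tumors it was 0.86 to 0.90 for Cyp51, Fdft1 and Sqle and 0.67 for Idi1 and Fdps, but 0.19 for Lss. These are descriptions over few tumors, in which each value shares its library with the values it is set against. The genes whose log2 CPM followed the mean of the members most closely over all 14 tumors were Mtbp (Spearman rho 0.96), Rfc1 (0.95), and Aaas, Thoc6 and Srbd1 (each 0.94), a likeness that also takes in the difference between models.

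Per length of exon, levels in RPKM (CPM divided by exon length in kilobases) put the enzymes in the same broad order in both models. The length joins all annotated exons of a gene, 10787 bases for Lss and 3505 to 5546 for the others, and the order depends on it. In CPM the mean of Lss, 114 in GMYC and 109 in GTML tumors, lay above those of Fdps and Fdft1. Cyp51 was highest, at 36.4 ± 8.91 RPKM in GMYC (SD, n = 6) and 27.3 ± 5.76 RPKM in GTML tumors (SD, n = 8), followed by Sqle at 27.9 ± 6.14 and 21.5 ± 7.28 RPKM. Fdps (15.9 and 13.1 RPKM), Fdft1 (15.1 and 10.1 RPKM) and Lss (10.6 and 10.1 RPKM) came next. In GMYC tumors Idi1, at 11.3 ± 3.31 RPKM, lay beside Lss within their spread, whereas in GTML tumors, at 3.64 ± 1.38 RPKM, it was the lowest of the 6. The difference between Fdps and Fdft1 in GMYC tumors was also smaller than their SDs.

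The ratio of Idi1 counts to those of each other member within a tumor does not depend on normalization. The ratio to Fdps was 0.461 to 0.735 in GMYC tumors and 0.164 to 0.284 in GTML tumors. The ratio to Fdft1 was 0.499 to 0.908 against 0.240 to 0.452, that to Sqle 0.220 to 0.320 against 0.0797 to 0.149, and that to Cyp51 0.225 to 0.286 against 0.0824 to 0.156. The ratio to Lss was 0.274 to 0.399 against 0.0712 to 0.254, where the highest value belonged to GTML tumor 2. None of the 5 ratios overlapped between the models. They restate the fold changes of the same genes and were not tested on their own.

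**Figure D2:**
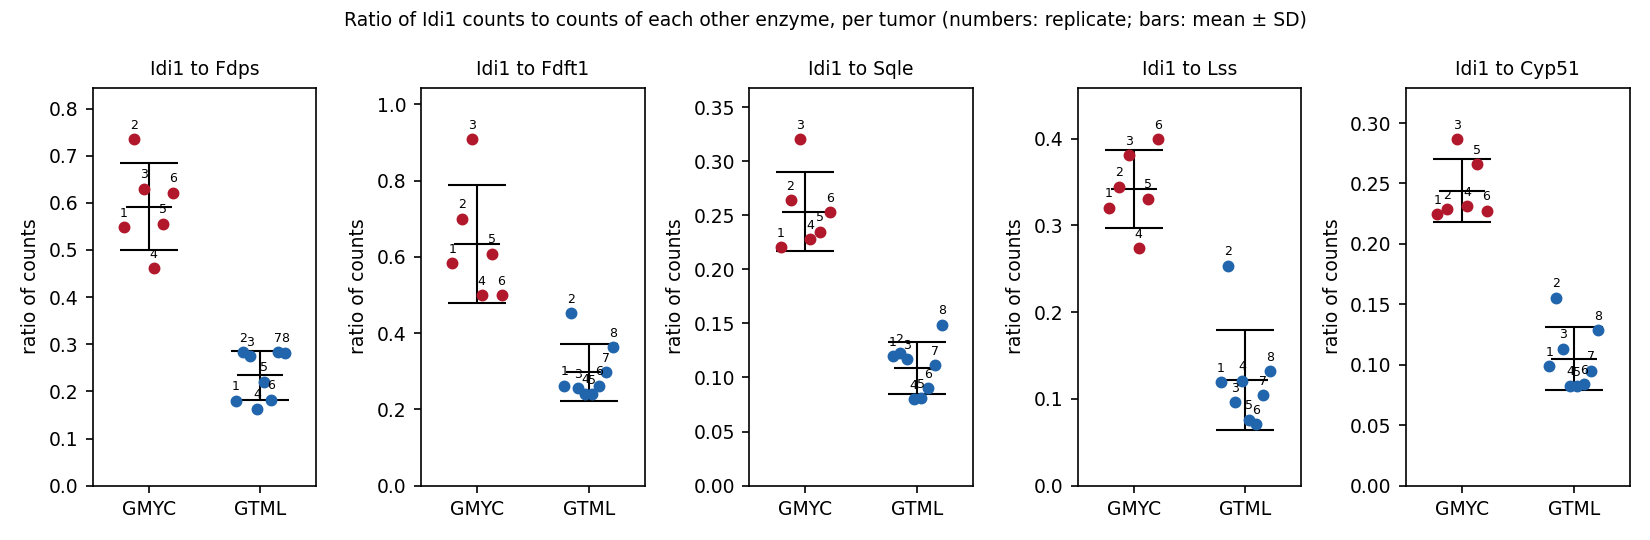
Ratio of Idi1 counts to counts of each of the other 5 enzymes (vertical axis, linear from 0, no unit) in each GMYC (red) and GTML (blue) tumor, numbered by replicate, with black bars for the mean ± SD. Every GMYC tumor lies above every GTML tumor in each panel, with the smallest gap for the ratio to Lss (0.274 against 0.254).

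Of 14 other enzymes tested on the route from acetyl-CoA to cholesterol, 2 were lower and 0 higher in GTML tumors. Over all genes tested 9.71% were called lower and 11.5% higher. Their log2 fold changes had a median of -0.27, and 12 of 14 were below 0. DESeq2 called 3 lower and limma-voom 2, and both called 0 higher, with 0 higher at an unadjusted p under 0.05 in any of these tools. The 2 called genes were Dhcr7 and Acat1.

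Dhcr7, which encodes the last reductase before cholesterol in the main branch, was 51.7, 63.6 and 83.0 CPM (lowest, median, highest) in GMYC tumors and 23.7, 41.7 and 48.7 CPM in GTML tumors, with no overlap (log2 fold change -0.75, SE 0.16, edgeR adjusted p = 0.00753). Every GMYC tumor lay above every GTML tumor in 2.52% of genes tested.

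Acat1, which encodes a mitochondrial acetoacetyl-CoA thiolase used chiefly in ketone and isoleucine metabolism, averaged 179 ± 40.1 CPM in the GMYC model (SD, n = 6) and 119 ± 15.7 CPM in the GTML model (SD, n = 8) (log2 fold change -0.57, edgeR adjusted p = 0.0119). Acat2, the cytosolic thiolase at the head of the sterol route, had a log2 fold change of -0.21 (95% interval -0.63 to 0.20, edgeR adjusted p = 0.443). Pmvk (0.20) and Mvd (0.11), which act on phosphorylated mevalonate just before Idi1, were the 2 with fitted values above 0, neither of them called.

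**Figure D3:**
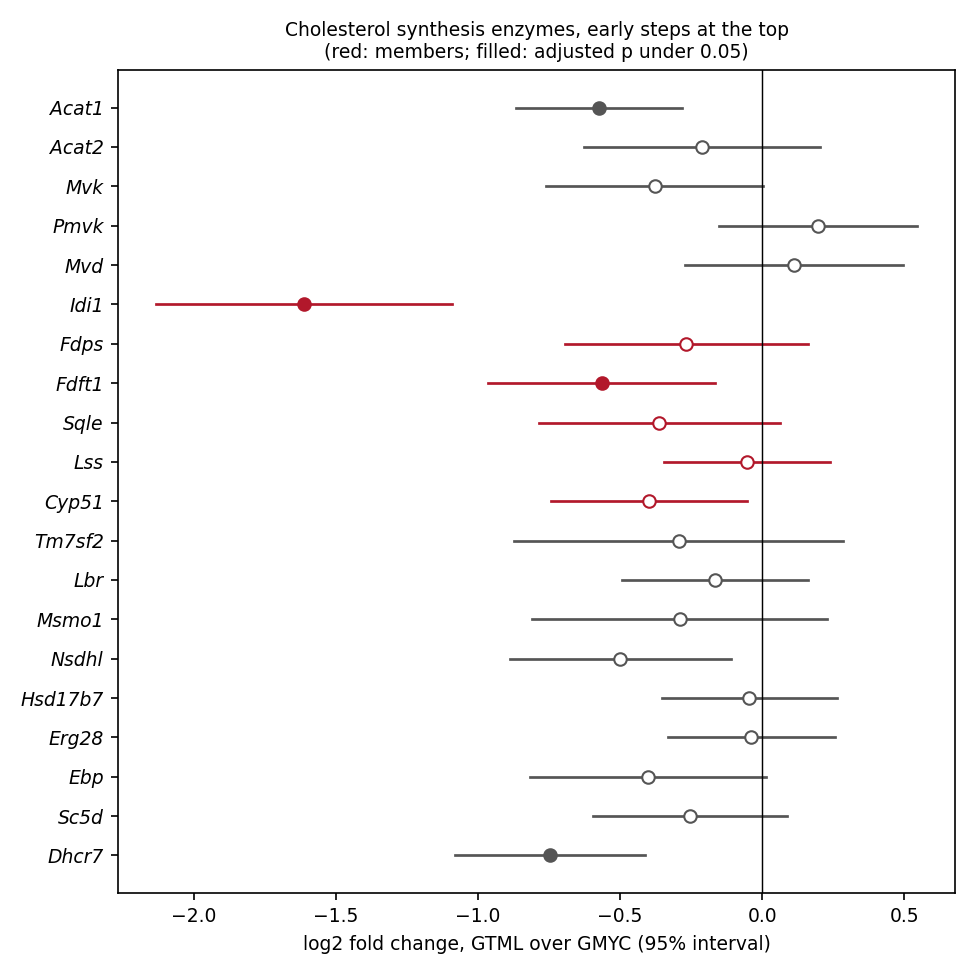
Log2 fold change, GTML over GMYC, with its 95% interval (horizontal axis) for 20 enzymes from acetyl-CoA at the top to cholesterol at the bottom, members in red and the others in gray. Filled points passed an adjusted p under 0.05; these are Acat1, Idi1, Fdft1 and Dhcr7, all to the left of 0.

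Genes that draw isoprenoids away from sterols showed 1 lower and 1 higher call among 8 tested (median -0.10). Both counts lie near the shares over all genes tested, 9.71% lower and 11.5% higher. Nus1, a subunit of the enzyme that builds dolichol precursors, had a log2 fold change of -0.36 (edgeR adjusted p = 0.0488), and Fntb, the beta subunit of protein farnesyltransferase, one of 0.54 (edgeR adjusted p = 0.0344). Nus1 kept its call only with GMYC tumor 6 or GTML tumor 2 or 6 left out, and adjusted p reached 0.105 without GMYC tumor 3. Fntb lost its call without GMYC tumor 1, 2, 5 or 6 or GTML tumor 1, where adjusted p was 0.0505 to 0.0697.

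Among 9 regulators of sterol sensing tested, edgeR called 0 in either direction (median log2 fold change -0.12). Srebf2 was 139, 186 and 254 CPM (lowest, median, highest) in GMYC tumors and 116, 158 and 211 CPM in GTML tumors (log2 fold change -0.24, 95% interval -0.60 to 0.12, edgeR adjusted p = 0.306). Insig1, a sterol-responsive retention factor, was 60.5, 90.4 and 102 CPM against 54.6, 63.2 and 99.98 CPM (log2 fold change -0.29, edgeR adjusted p = 0.194), with the highest GTML value in tumor 2, and without that tumor it was -0.39 (edgeR adjusted p = 0.0492). For the lower direction 0 regulators had an unadjusted p under 0.05 by edgeR, and DESeq2 and limma-voom called 0. For the higher direction 2 had an unadjusted p under 0.05 by edgeR, DESeq2 called both (Insig2 and Mbtps1) and limma-voom 0.

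Of 13 genes of cholesterol uptake and transport within the cell, 2 were lower and 0 higher in GTML tumors (median log2 fold change 0.07), beside 9.71% lower and 11.5% higher over all genes tested. Lipa, the lysosomal lipase that frees cholesterol from lipoprotein esters, was 75.0 to 96.7 CPM in GMYC and 33.5 to 73.1 CPM in GTML tumors, with no overlap (log2 fold change -0.75, SE 0.18, edgeR adjusted p = 0.0123). Such a lack of overlap, with GMYC higher, was found in 2.52% of genes tested. Stard4, a carrier of cholesterol between membranes, was 57.1 to 112 against 26.7 to 68.7 CPM (log2 fold change -0.65, edgeR adjusted p = 0.0336), and lost its call without GMYC tumor 2, 3, 5 or 6 or GTML tumor 3 or 8, where adjusted p was 0.0531 to 0.0757. For the higher direction 1 gene had an unadjusted p under 0.05 by edgeR, DESeq2 called 1 (Gramd1b) and limma-voom 0.

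Among 9 genes of efflux, esterification and the oxysterol-sensing LXR pathway, edgeR called 0 in either direction (median log2 fold change -0.01). With no adjustment 3 had an edgeR p under 0.05, all lower in GTML, where 17.4% of all genes tested did so in that direction. DESeq2 and limma-voom each called 1 lower, Apoe, which encodes the main apolipoprotein of the brain (log2 fold change -0.35, edgeR adjusted p = 0.0529).

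**Figure D4:**
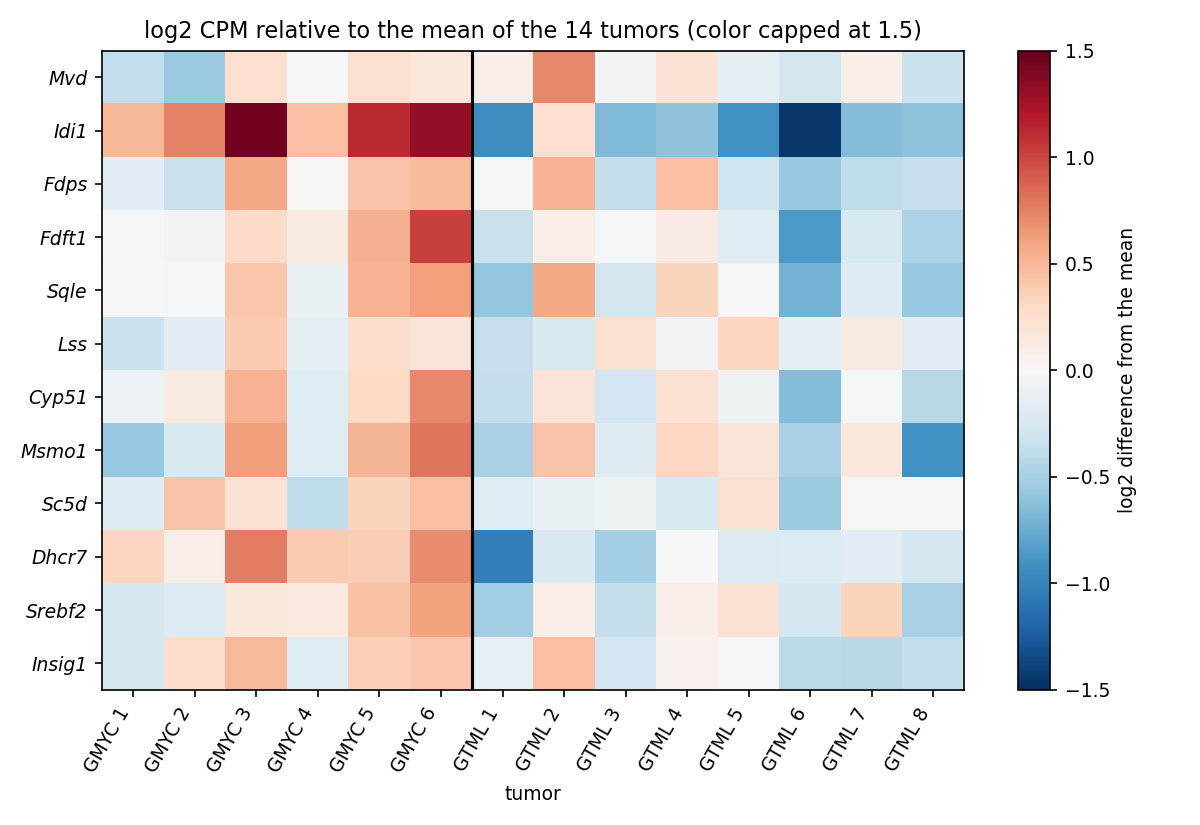
Log2 CPM of members and of selected genes of the same route and its regulators (rows) in each tumor (columns, GMYC left of the line), as the difference from the mean of the 14 tumors, with color capped at 1.5. Idi1 and Dhcr7 separate the models, whereas for Fdps and Sqle GTML tumors 2 and 4 share the red of GMYC tumors 3, 5 and 6.

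A biopsy mixes cell types, and in bulk RNA fewer cells of a type cannot be told apart from less RNA per cell. Astrocytes make much of the cholesterol of the brain and oligodendrocytes use it for myelin, so their markers are given beside the enzymes. Of 8 astrocyte markers edgeR called 0, although all 8 log2 fold changes were below 0 (median -0.79; 2 with an unadjusted p under 0.05), DESeq2 called 1 lower (Slc1a3) and limma-voom 0. Their summed level was 810 to 1439 CPM in GMYC tumors and 545 to 972 CPM in GTML tumors, and in GTML tumor 2 it was 578 CPM. Slc1a2 made up most of this sum, with means of 705 CPM in GMYC and 583 CPM in GTML tumors. It is the gene also called Glt1, whose promoter drives the transactivator in both models. The part of the tumor cells in this sum was not tested. Of 10 oligodendrocyte markers 2 were higher in GTML, Mog and Myrf, and 0 lower, where 11.5% of all genes tested were called higher. Of the 10 log2 fold changes 5 were below 0 (median -0.11). Mean levels in GMYC and GTML tumors were 1.96 and 5.77 CPM for Mog and 5.56 and 12.2 CPM for Myrf. For Mbp, the most abundant, they were 171 and 118 CPM (log2 fold change -0.52, edgeR adjusted p = 0.0705). The summed level of all 10 was 179 to 383 CPM against 195 to 437 CPM.

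Of 6 proliferation genes 3 were lower in GTML tumors, Ccnb1, Cdk1 and Pcna, where 9.71% of all genes tested were called lower. The summed level of all 6 was 1504 to 2799 CPM in GMYC tumors against 1507 to 1990 CPM in GTML tumors. Of 5 endothelial and blood genes 2 were lower, the globin genes Hba-a1 and Hbb-bs, with the same calls by DESeq2 and limma-voom. The endothelial genes were not called and went both ways, with log2 fold changes of -0.67 (Cldn5), 0.36 (Pecam1) and 0.54 (Flt1). For the higher direction DESeq2 had 2 of the 5 at an unadjusted p under 0.05 and limma-voom 1. The summed level of all 5 was 87.9 to 120 against 56.8 to 104 CPM. Of 6 cerebellar neuron genes tested edgeR called 1 lower, Cbln3, DESeq2 called 3 lower and limma-voom 0 (summed level over 7 genes 124 to 515 against 121 to 286 CPM). Cbln3 was at 0 to 62.9 CPM in GMYC tumors, and at 0.303 to 2.12 CPM in GTML tumors (log2 fold change -3.39, edgeR adjusted p = 0.0350). Of 8 microglial genes edgeR called 0, with 0 at an unadjusted p under 0.05, and DESeq2 and limma-voom called 0 (summed level 195 to 317 against 98.8 to 395 CPM). Of 4 tumor markers 1 was lower, Tubb3, and the summed level of all 4 was 627 to 762 against 519 to 766 CPM. No marker was at 0 in every tumor, and the part of these differences in the levels of the enzymes was not tested.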

How the data were processed

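RNA of 14 tumors was sequenced with Ion Torrent protocols per the labels. The methods name the Ion Proton instrument for GMYC tumors and describe part of the GTML libraries as generated earlier. The authors aligned reads with STAR (2.4.0 in the submitters' processing notes) and Bowtie2 (2.2) to the mm9 build (the paper's methods name other versions of both aligners), counted them per gene with featureCounts (Subread 1.5.2) and a GENCODE annotation, and deposited raw whole-number counts. Another 18 columns hold counts of single samples that no label identifies by name; these were left out, so the onalespib and Arf knockout comparisons were not run. Replicate numbers come from the titles.

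Symbols and exon lengths came from GENCODE M21 (GRCm38), matched by Ensembl identifier for 32620 of 37310 genes (87.4%). No coordinates are given for counted genes, since the counts were made on mm9. edgeR 4.0.16 in R 4.3.3 (TMM, quasi-likelihood test) compared GTML with GMYC on the 21024 genes that exceeded a CPM of 1 in 3 or more tumors, with Benjamini-Hochberg adjustment over all of them and calls at 0.05. The study's tool, limma-voom (here limma 3.58.1 and all 8 GTML tumors, where the study compared 1 fewer), is an alternative, as are DESeq2 1.42.0, library size without TMM, other filters, a replicate block, the small nucleolar RNA split as a model term, each side of that split, a stricter call and leaving out each tumor. Log2 CPM used a prior count of 2. Near copies of at least 95% identity over at least 100 bases were found with BLAST 2.17.0, and summing them was added after the data had been seen. Figures were drawn with matplotlib 3.10.9. The code was tested on simulated counts.

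The members, lists and tests were chosen with earlier results of these data known. Named were all members, the called genes of each list with Srebf2 and Insig1, the 5 genes most like the members, and Myc and Mycn. Pmvk, Mvd, Acat2, Apoe, Gramd1b, Insig2, Mbtps1, Msmo1, Sc5d, Srebf1, Slc1a3, the called markers and the near copies and overlapping genes fall outside this rule. So do Mbp, Slc1a2, Cldn5, Pecam1 and Flt1. The expression of Spring1 and Hmgcs1, which were not matched, was not analysed here, and some other genes of the lists are not reported here and were left out of the counts. Depth limits the precision of low counts; a member's count was 37 to 1547 per tumor. Replicates are biopsies, which the labels do not tie to litters or to separate animals, so p-values measure the spread between these samples.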

Additional observations from a re-analysis of the deposited data

Results flagged for a closer look

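Of 54 groups of tumor values examined (each gene, ratio or marker sum in each model), 6 had 1 tumor set apart from the rest of its group. This was measured as its gap to the next tumor over the whole range. Chance would give about 2.7, or 1 in 20, if the groups were independent. They are not, since Idi1 also enters its ratios and the mean of the members, so 6 cannot be read as an excess over 2.7. Of the 6, 4 were high values of GTML tumor 2, and 2 of these hold the same Idi1 count. They were Idi1 (gap share 0.648; 23.6 against 12.9 CPM in the next tumor), the ratio of Idi1 to Lss counts (0.667; 0.254 against 0.132), Mvd (0.572; 71.6 against 50.4 CPM) and Insig1 (0.528; 99.98 against 76.0 CPM). The other 2 were the low Myc level of GMYC tumor 6 (0.752; 33.5 against 134 CPM) and the high summed cerebellar neuron markers of GMYC tumor 1 (0.689; 515 against 245 CPM).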

How the results depend on the processing

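Of 25 alternatives, 24 kept the direction and call of Idi1, and the exception was the fit on the higher side of the small nucleolar RNA split (4 against 2 tumors). Members called lower in GTML numbered 2, and 1 under limma-voom, 1 with no filter on low counts, 1 with the stricter call (adjusted p under 0.01 with a log2 fold change beyond 1 in size) and 0 on the higher side of the split. The other enzymes called lower numbered 2, and 0 with the stricter call and 0 on that side, where the log2 fold changes of Fdps (0.22), Sqle (0.0439) and Insig1 (0.10) also changed sign, none of them called. With single tumors left out the members called lower ranged from 1 to 4 (4 without GTML tumor 2; 1 without GMYC tumor 3, 5 or 6 or GTML tumor 1, 3, 5, 6, 7 or 8) and the other enzymes from 2 to 3, and Lss ranged from -0.1109 to 0.0194, the latter without GMYC tumor 3. The share of all genes tested that was called lower also moved, from 5.65% without GMYC tumor 3 to 15.1% without GTML tumor 2. It was 11.4% under limma-voom, 4.96% with no filter on low counts and 0.0106% on the higher side of the split. The counts of called members are to be read beside these shares. The cause of the changes was not tested.

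The tumors share only a replicate number: deviations of same-numbered tumors correlated between -0.21 and 0.24. With the replicate number as a block (numbers 1 to 6), 1 member was called lower, Idi1 (log2 fold change -1.65, edgeR adjusted p = 0.0458), and 0 of the other enzymes (edgeR adjusted p = 0.0654 for Dhcr7 and 0.0908 for Acat1), in a fit that called 90 genes lower and 161 higher in place of 2041 and 2418. With all genes of at least 1 count tested, the median log2 fold change of all genes was 0.18 in place of 0.04, and that of Idi1 was -1.63. Over all genes, calls numbered 2388 lower and 2101 higher by limma-voom, and 2547 and 3305 by DESeq2, which gave no adjusted p for 74 genes. The comparisons of the cell lines, and their alternatives, were not run.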

Other observations

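Sterol genes outside the members differed in how they stood in GTML tumor 2, set against the median of the other 7 GTML tumors. Mvd, which makes isopentenyl diphosphate for Idi1, stood at 1.70 times that median, Insig1 at 1.68 times, Msmo1, the C-4 methylsterol oxidase that follows Cyp51, at 1.54 times and Srebf2 at 1.29 times. Dhcr7 (0.986 times), Sc5d (0.973 times) and Srebf1 (0.947 times) lay at or just under it. In GTML tumor 6, lowest of its model for 5 of the 6 members, Msmo1 held 0.637 times the median of the others, Sc5d 0.715 times, Mvd 0.778 times, Srebf2 0.791 times, Insig1 0.824 times and Srebf1 0.957 times, whereas Dhcr7 held 1.02 times. These genes were chosen after their values had been seen.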
